A study of Rattus norvegicus with 23 samples.

Results

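This report describes 38 genes of blood coagulation and of fibrinolysis, the process that dissolves clots, in the lung of elderly rats that had inhaled titanium dioxide (TiO2) nanoparticles. The members were chosen by symbol, as the names given on the array, and all 38 were found among the 25595 symbols that it carries. They were read by 50 of its probes, 44 of which passed the filter on dim probes. A total of 35 members could be tested, out of 23028 genes tested on the array. F7, F9 and F13b failed the filter.

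Total RNA of the accessory lobe of the lung was hybridised to 23 one-colour Agilent arrays, 1 for each rat in the labels. All animals were male F344 Fisher rats aged 19 months at the start of inhalation. Exposed rats inhaled TiO2 at 10 mg/m3 through the nose only during 4 weeks, on 5 days of each week and for 6 h on each of those days. Control rats received filtered air. Lungs were taken on the day exposure ended (D0, 6 control and 5 exposed arrays) or 28 days later (D28, 6 control and 6 exposed arrays). The source field of the exposed D28 arrays names day 0, whereas their titles and descriptions give day 28, which was used here.

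Coagulation starts when tissue factor (F3) meets factor VII, and runs through a cascade of liver-made protease zymogens to thrombin, which turns fibrinogen into fibrin. Contact factors (F12, plasma kallikrein and kininogen) feed the same cascade and release bradykinin. Antithrombin-type serpins, the protein C system and tissue factor pathway inhibitor restrain it, while plasminogen, cut by urokinase (Plau) or tissue plasminogen activator (Plat), digests fibrin. In the lung, tissue factor and urokinase are made by local epithelial cells and macrophages, and fibrin turnover accompanies inflammation.

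Values are log2 quantile-normalized signals, and FC is the fold change of exposed over control rats. A gene was called when its limma p-value, adjusted over all genes, was below 0.05 and its fold was at least 1.5. Per array, 69.5 to 77.9% of spots were well above background and no spot was saturated. The arrays lie on 5 slides, 1 of which holds only Control D28 replicate 4, read with a later software version. Both groups share 4 slides at D0 and 3 slides at D28. All 14 listed macrophage markers were measured, 13 of them above background on all 23 arrays and Marco on 2. Their summed signal was 35264 to 45353 in control and 55499 to 69595 in exposed rats at D0, and 29779 to 45191 against 46118 to 59979 at D28. In whole lobes, fewer cells of a type and less RNA per cell cannot be told apart.

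The 10 markers of type II and 7 of type I pneumocytes, the epithelial cells of the alveolus, were above background on all 23 arrays. The ranges of their summed signals in control and exposed rats did not overlap for type II markers at D0, and overlapped otherwise. The sums were not tested, and 0 markers of either list were called on either day. The sum of type II markers was 383314 to 422523 in control and 444875 to 516287 in exposed rats at D0, and 367099 to 445883 against 411873 to 494616 at D28. The sum of type I markers was 178140 to 211477 against 141351 to 179199 at D0, and 184019 to 232838 against 149861 to 194314 at D28. Of the 38 members, 25 were well above background on all 23 arrays, and 6 were above it on none: F7, F9, F13b, Fga, Serpina5 and Serpinb2. The remaining 7 lay in between, from Serpinc1, the antithrombin gene, on 1 array to Serpind1 on 22 arrays. Tfpi2 was detected on 4 arrays, F10 on 5, Fgb on 7, Serpinf2 on 15 and F12 on 21. The fibrinogen chains differed in detection. Fgg, the gamma chain, was above background on all 23 arrays, whereas Fga and Fgb, the alpha and beta chains, were above it on 0 and 7 arrays. Of the liver markers, Apoa1, Apoh, Ambp, Tat and Cps1 were above background on 0 arrays and Alb on 5 arrays, while Ahsg, Hpx and Cyp2e1 were above it on all 23.

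**Figure D1:**
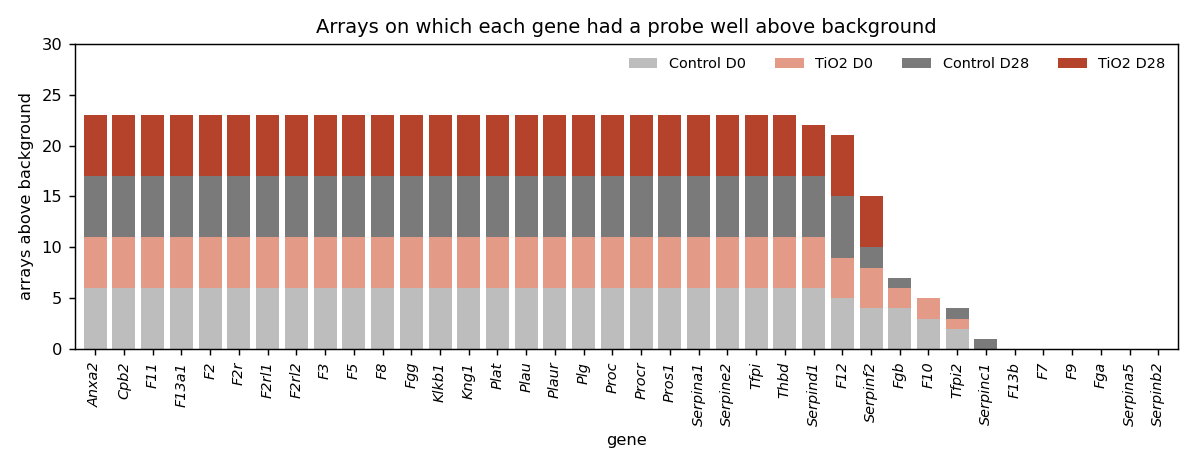
Number of arrays on which each of the 38 members had at least 1 probe well above background, stacked by group. The 25 genes on the left reach 23 arrays and the 6 on the right have no bar.

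At D0, 2 of the 35 tested members, Kng1 and Serpine2, were higher in exposed rats and 0 were lower. The share of all genes called at D0 was 1.79%, with 1.09% higher and 0.695% lower. At D28 the same genes, Kng1 and Serpine2, were higher and 0 were lower, against 0.756% of all genes called, 0.486% higher and 0.269% lower. The median log2 FC of the members was -0.085 at D0 and -0.0107 at D28, beside -0.000671 and -0.00549 over all genes. At an unadjusted p below 0.05, 11 members passed at D0 and 8 at D28, where 11.9% and 11% of all genes passed. The D0 and D28 comparisons share no samples, although all 4 groups share 1 estimate of the spread.

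**Figure D2:**
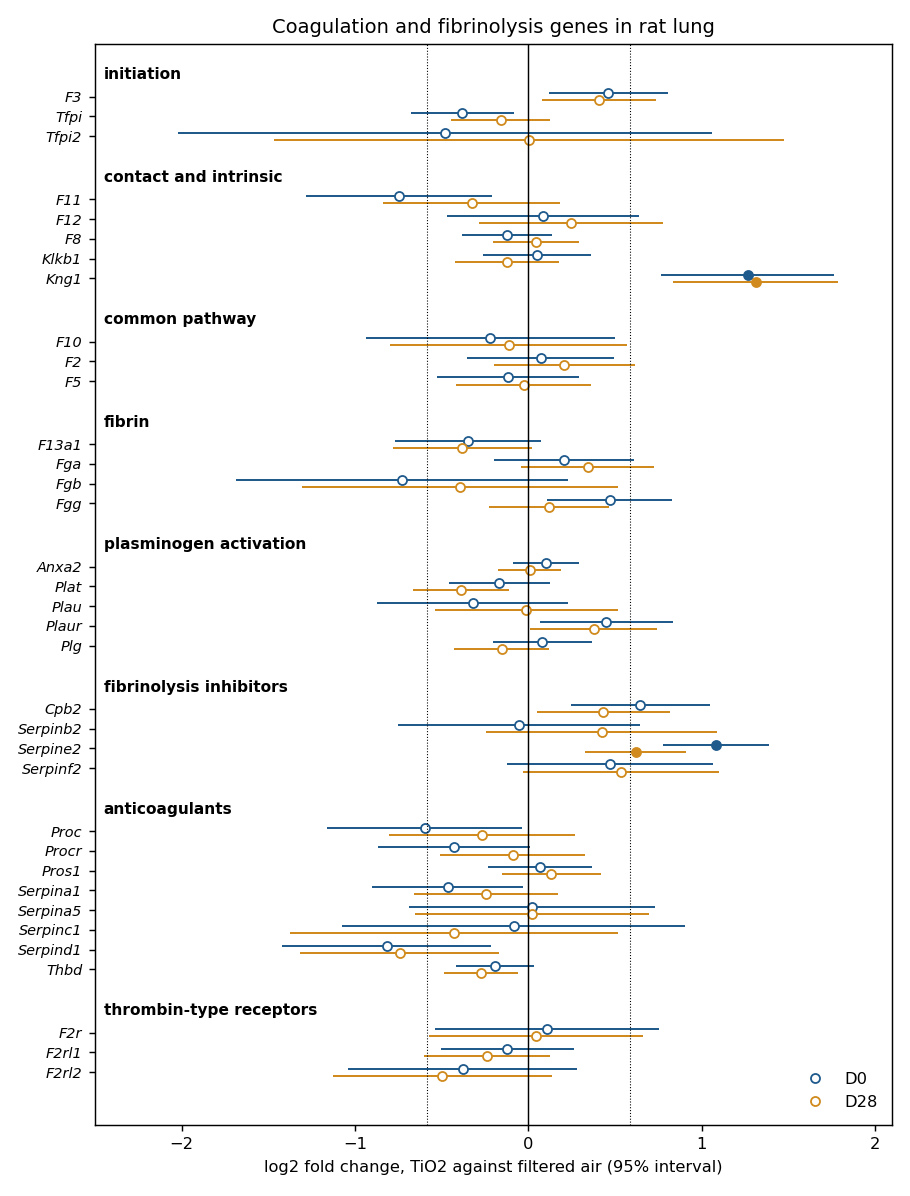
Log2 fold change of TiO2 over filtered air for the 35 tested members, by role, with the 95% interval from limma. Blue marks D0 and orange D28. Filled points passed the test, and dotted lines mark a fold of 1.5. Kng1 and Serpine2 carry the only filled points.

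Averaging the effect over both time points gave the members more calls. Kng1 and Serpine2 were higher and Serpind1 was lower, beside 1.87% of all genes called. On the adjusted p alone F3 and Cpb2 passed as well, which made 5 members, against 6.55% of all genes. The contrast between the D28 and the D0 effect, also fitted by limma, called 0 members, beside 0.0304% of all genes. At an unadjusted p below 0.05 it passed 1 member, Serpine2, and 3.44% of all genes.

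Kng1 encodes kininogen, the cofactor of contact activation and the precursor of bradykinin. Its signal, averaged over 3 probes, had a lowest, median and highest value of 9.04, 9.41 and 9.91 in the control rats at D0. The 5 exposed rats of D0 gave 10.94, 10.97, 11.01, 9.80 and 10.73. Replicate 4 was thus the only exposed D0 array that fell within the control range. At D28 the lowest, median and highest values were 8.48, 9.15 and 9.44 in control rats and 9.75, 10.43 and 11.02 in exposed rats. The D28 groups did not overlap, as was the case for 1.22% of all genes. The log2 FC was 1.26 ± 0.24 (SE) at D0, a fold of 2.40 (adjusted p = 0.0039, limma), and 1.31 ± 0.23 at D28, a fold of 2.48 (adjusted p = 0.0048). Both calls were kept in all 23 fits that left out 1 array. Within slides, Kng1 was higher in exposed rats on 4 of 4 slides at D0, by 0.53 to 1.55, and on 3 of 3 slides at D28, by 1.03 to 2.02. Over the 11 liver markers measured, 5 of which were never above background, the summed signal was 938 to 1270 in control and 954 to 1699 in exposed rats at D0. At D28 it was 463 to 735 against 573 to 976. At D0, 9 of the 11 had a log2 FC above 0 and 1, Hpx, was called higher (log2 FC 0.90, adjusted p = 0.020, limma). At D28, 7 of the 11 were above 0 and 0 were called. Over all genes, 1.79% were called at D0 and 0.756% at D28. The part of liver-type RNA in the Kng1 result was not tested.

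**Figure D3:**
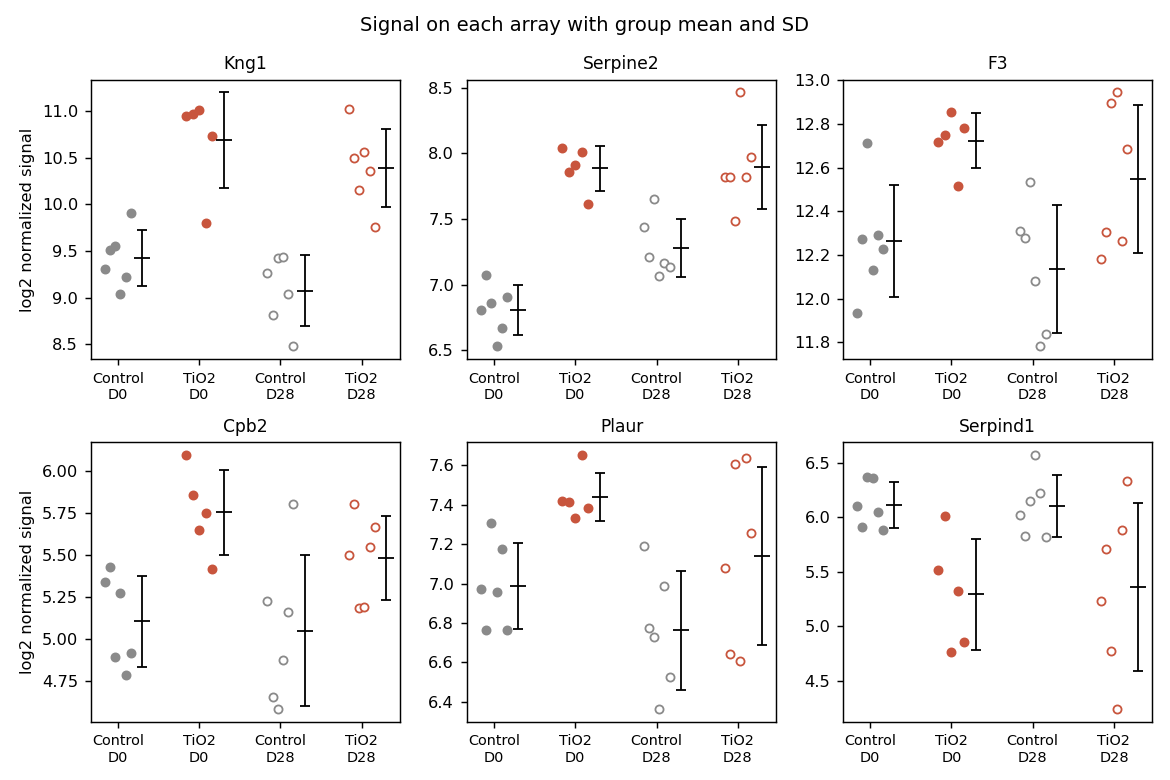
Log2 normalized signal of 6 members on each array, with group means and SD as bars. Filled points are D0 and open points D28, grey for filtered air and red for TiO2. Serpine2 and Plaur at D0 and Kng1 at D28 show no overlap, and Serpind1 spreads most in the exposed group of D28.

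The rat carries several kininogen genes, and some of their probes share long stretches. Which kininogen transcript each probe reads was not tested, so Kng1 and Kng2 are names of probes here. Their calls cannot be taken as separate results for each gene. Probes A_44_P1159869 and A_64_P137063 lie on chromosome 11 at chr11:80013717-80013776 and chr11:80013720-80013779 (rn4, minus strand, the positions the files give). They share 57 bases, so they are nearly the same measurement. The probe of the related gene Kng2, A_44_P1081470, at chr11:80127612-80127772, a genomic span of 161 bases for its 60, carries 47 bases aligned with the first of them, of which 44 are identical. The sequences are shown because they tell how alike the Kng1 and Kng2 probes are. Capitals mark the aligned stretch, 5′ to 3′:
Kng1 (A_44_P1159869): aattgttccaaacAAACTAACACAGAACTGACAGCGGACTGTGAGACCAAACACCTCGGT
Kng2 (A_44_P1081470): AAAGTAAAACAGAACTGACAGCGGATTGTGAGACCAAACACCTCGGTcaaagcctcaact

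Counted from the 5′ end of the Kng1 probe, the Kng2 probe differs by C17G, C21A and C39T within this stretch. The third Kng1 probe, A_44_P1160678, at chr11:80008747-80008806, shares 55 bases without mismatch with a probe named Kng2l1, A_44_P1360899, at chr11:80173193-80173252. The shared stretch of both begins gaagcatgtttcttcatcacctgatcctgg, so their readings cannot be assigned to either gene. The other probes of Kng2l1, A_44_P1082054 and A_44_P296167, share no aligned stretch of 20 bases or more with a Kng1 probe.

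The 7 kininogen probes fell into 4 sets by gene and shared sequence, whose differences in fold change were not tested. The overlapping Kng1 probes A_44_P1159869 and A_64_P137063 gave log2 FC of 1.47 and 1.57 at D0 and 1.64 and 1.65 at D28, with probe-level adjusted p of 0.00157, 0.0169, 0.0007 and 0.0193. The Kng2 probe gave 0.98 at D0 and 1.00 at D28 (adjusted p = 0.0085 and 0.0122, limma over probes). The shared pair, A_44_P1160678 and A_44_P1360899, gave 0.76 and 0.71 at D0 and 0.65 and 0.63 at D28, and missed the threshold on each day, with adjusted p from 0.0546 to 0.163. The Kng2l1 probes with no shared stretch gave -0.19 and -0.26 at D0 and 0.13 and -0.04 at D28. A Kng1 value from the brightest probe alone, A_44_P1160678, kept the call at D0 (adjusted p = 0.0404) and lost it at D28 (adjusted p = 0.114).

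**Figure D4:**
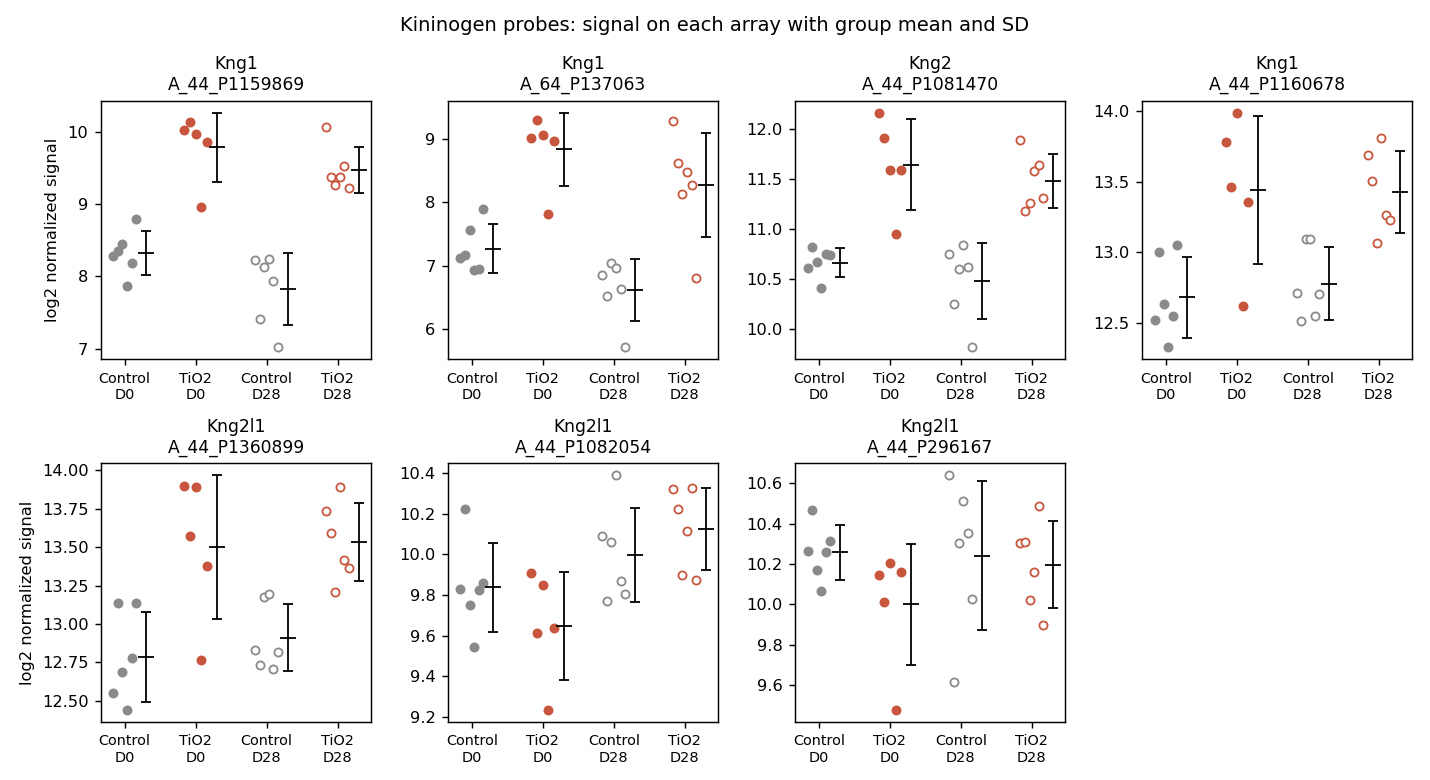
Log2 normalized signal of the 7 kininogen probes on each array, with group mean and SD. A_44_P1159869 and A_64_P137063 overlap by 57 bases, A_44_P1160678 and A_44_P1360899 share 55, and A_44_P1082054 and A_44_P296167 show groups that overlap on both days.

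The upstream sequences of Kng1 and Kng2, from the RefSeq table of promoters (GRCr8), are shown because the values under both names were called on both days. As said above, these calls are not separate results for each gene. Each run covers the 250 bases before the start of the gene, 5′ to 3′ on its own strand. Capitals mark the letters TTGCNNAA on either strand, the C/EBP-like motif:
Kng1, chr11:91340149-91340398, minus strand: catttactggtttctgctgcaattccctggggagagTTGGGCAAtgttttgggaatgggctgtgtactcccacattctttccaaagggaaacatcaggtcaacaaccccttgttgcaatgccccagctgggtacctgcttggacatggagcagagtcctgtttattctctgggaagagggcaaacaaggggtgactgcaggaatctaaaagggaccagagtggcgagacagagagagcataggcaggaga
Kng2, chr11:91418220-91418469, plus strand: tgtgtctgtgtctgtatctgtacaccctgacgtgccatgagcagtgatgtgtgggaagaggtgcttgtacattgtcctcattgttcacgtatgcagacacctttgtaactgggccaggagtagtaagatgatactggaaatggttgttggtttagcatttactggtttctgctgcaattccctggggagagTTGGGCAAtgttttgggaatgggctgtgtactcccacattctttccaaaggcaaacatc

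The match TTGGGCAA lies at bases -214 to -207 of Kng1 and -59 to -52 of Kng2, relative to the listed start. In both printed runs it sits within a shared stretch of nearly identical bases, so these are not separate finds. Kng2l1, whose probes with no shared stretch were not called, also holds TTGGGCAA, at -192 to -185 of a listed start, and STAT-like letters. Another probe named Kng2l1, A_44_P1360899, gave 0.71 at D0 and 0.63 at D28. The match thus occurs upstream of Kng1, Kng2 and Kng2l1 alike, and whether it bears on their signals was not tested. Of 33469 upstream stretches of this length, 9.22% hold the C/EBP-like letters. A promoter was listed for 31 of the 38 members, and 8 of these hold those letters in any listed stretch. Members are counted by gene and the percentages by single stretch, and a gene can have several stretches. Member counts and percentages are therefore unlike measures. The AP-1-like letters TGANTCA occur in 9 of 31 members and 6.34% of all stretches, the STAT-like letters TTCNNNGAA in 4 of 31 and 7.67%, and the kappaB-like letters GGANTTTCC in 1 of 31 and 1.08%. None of the 4 motifs was found in the 250 bases of Serpine2, which says only that these letters are not there.

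Serpine2 encodes protease nexin-1, a serpin that inhibits thrombin, urokinase and tissue plasminogen activator. Control rats at D0 gave a lowest, median and highest signal of 6.53, 6.83 and 7.07. The 5 exposed rats gave 8.04, 7.86, 7.91, 8.01 and 7.61, all above the control range, which held for 4.3% of all genes at D0 in either direction. At D28 the values were 7.07, 7.19 and 7.65 in control rats and 7.48, 7.82 and 8.46 in exposed rats, and the groups overlapped. The log2 FC was 1.08 ± 0.14 at D0, a fold of 2.11 (adjusted p = 0.00022), and 0.62 ± 0.14 at D28, a fold of 1.54 (adjusted p = 0.027). The difference between the effects was -0.46 ± 0.20 (unadjusted p = 0.031), and its adjusted p of 0.99993 did not pass. In rats on filtered air, Serpine2 differed by 0.47 between D28 and D0 (adjusted p = 0.124). Within slides it was higher on 4 of 4 slides at D0, by 0.97 to 1.27, and on 3 of 3 at D28, by 0.35 to 0.79. The D28 call was lost without 7 of the 23 arrays, each left out in turn, and with the arrays of D28 alone (log2 FC 0.62, adjusted p = 0.188). It was kept under 12 of 19 other settings, with a log2 FC from 0.44 under normexp to 0.62. The 7 arrays were Control D28 replicates 2, 4, 5 and 6 and TiO2 D28 replicates 1, 4 and 6. Without Control D28 replicate 4 the D28 log2 FC was 0.58 (adjusted p = 0.0552). Of 14 macrophage markers, 13 had a log2 FC above 0 at D0 and 12 at D28. The test called 4 of them higher at D0 and 3 at D28, beside 1.79% and 0.756% of all genes called. The part of these markers in the Serpine2 results was not tested.

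The other inhibitors of fibrinolysis were not called at either time point. Cpb2 encodes a carboxypeptidase that removes the fibrin ends where plasminogen binds. Its lowest, median and highest signals were 4.79, 5.10 and 5.43 in control rats at D0, against 6.09, 5.85, 5.65, 5.75 and 5.42 in the 5 exposed rats. All exposed values but 1 lay above the highest control. At D28 they were 4.58, 5.02 and 5.80 against 5.19, 5.52 and 5.80, and the groups overlapped. The log2 FC was 0.65 ± 0.19 at D0 (adjusted p = 0.073) and 0.43 ± 0.18 at D28 (adjusted p = 0.343). The D0 value was called with slide as a random block (log2 FC 0.65, adjusted p = 0.0425) and not with slide as a fixed block (log2 FC 0.64, adjusted p = 0.0738), and 6 alternatives called it in all. Averaged over both days it was 0.54 ± 0.13 (adjusted p = 0.013), a fold of 1.45, below the fold limit. Serpinf2, alpha-2-antiplasmin, gave 0.47 and 0.53, and Serpinb2, which encodes a urokinase inhibitor of macrophages, gave -0.05 and 0.42 with no array above background.

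F3, tissue factor, gave a lowest, median and highest signal of 11.94, 12.25 and 12.71 in control rats and 12.72, 12.75, 12.86, 12.52 and 12.78 in exposed rats at D0. At D28 the values were 11.78, 12.18 and 12.53 in control rats and 12.18, 12.50 and 12.95 in exposed rats. The groups overlapped on both days. The log2 FC was 0.46 ± 0.16 at D0 (adjusted p = 0.169) and 0.41 ± 0.16 at D28 (adjusted p = 0.266). Averaged over both days it was 0.44 ± 0.11 (adjusted p = 0.020), a fold of 1.35. F3 was higher in exposed rats on 4 of 4 slides at D0 and 3 of 3 at D28, by 0.34 to 0.63 and 0.41 to 0.54. Its partner F7 was never above background. Tfpi, the inhibitor of the F3 and F7 complex, gave -0.38 ± 0.14 at D0 and -0.16 ± 0.13 at D28 (adjusted p = 0.20 and 0.75), and Tfpi2 gave -0.48 and 0.00. At D0 the Tfpi probes A_42_P706904 and A_44_P726985 gave -0.17 and -0.60.

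Plau, urokinase, gave log2 FC of -0.32 ± 0.26 at D0 and -0.01 ± 0.25 at D28, with 95% intervals that include 0. Its lowest and highest signals were 6.31 and 7.29 in control and 5.88 and 6.77 in exposed rats at D0, and 5.75 and 7.24 against 5.69 and 6.91 at D28. The Plau value averages probes that differed at D0. A_43_P11703, above background on 21 arrays, gave -0.59, and the brighter A_44_P260036 gave -0.05. Plaur, the urokinase receptor, ranged from 6.76 to 7.31 in control rats at D0, and its 5 exposed values were 7.42, 7.41, 7.33, 7.65 and 7.38. The D0 groups did not overlap. The log2 FC of Plaur was 0.45 ± 0.18 at D0 (adjusted p = 0.268) and 0.38 ± 0.17 at D28 (adjusted p = 0.416), and its mean over both days was 0.41 ± 0.13 (adjusted p = 0.052). Within slides Plaur was higher on 4 of 4 slides at D0 and 3 of 3 at D28. The part of the macrophage and pneumocyte markers in the values of F3, Plau and Plaur was not tested. Plat gave -0.17 and -0.39, with a mean of -0.28 ± 0.10 (adjusted p = 0.091). Plg, plasminogen, and Anxa2, which binds plasminogen and Plat at the cell surface, stayed between -0.15 and 0.10. Anxa2, with log2 FC of 0.10 and 0.01, was also higher on 4 of 4 slides at D0 and 3 of 3 at D28. Agreement over so few slides alone thus does not mark a member as changed.

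**Figure D5:**
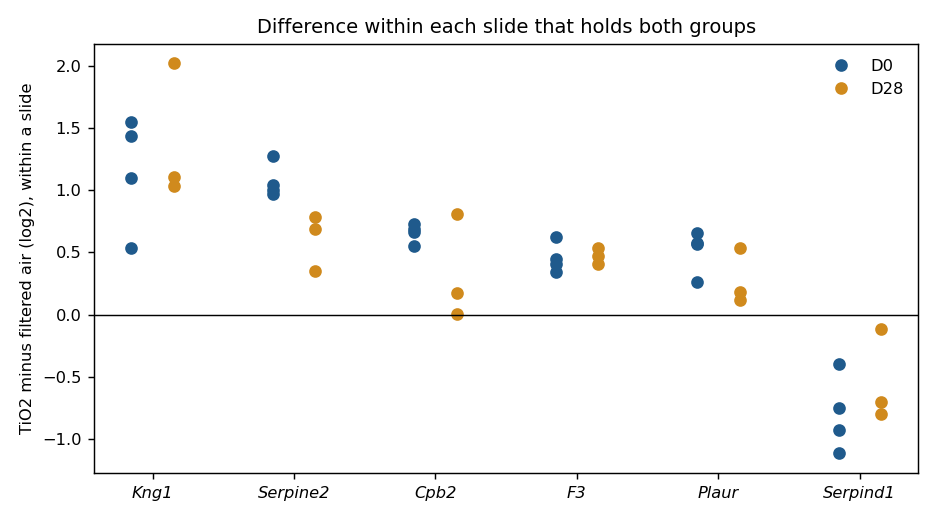
Exposed minus control difference in log2 signal for 6 members, computed within each slide that holds both groups, 4 slides at D0 in blue and 3 at D28 in orange. Points of Serpind1 lie below 0 and those of the other 5 genes above it, the lowest being Cpb2 at D28 with 0.002.

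Of the 8 genes grouped here as anticoagulants, 6 had a log2 FC below 0 at D0 and 6 at D28, and 0 were called on either day. Their median was -0.311 and -0.256, beside -0.000671 and -0.00549 over all genes. The 6 include Serpinc1, which was above background on 1 array, and Serpina1, alpha-1-antitrypsin, whose place in this list is a choice. Serpine2, which also inhibits thrombin and was higher on both days, was counted with the fibrinolysis inhibitors instead. Serpind1, heparin cofactor II, an inhibitor of thrombin, gave a lowest, median and highest signal of 5.88, 6.07 and 6.37 in control rats at D0. The 5 exposed rats gave 5.51, 6.01, 4.76, 5.32 and 4.86, of which 1 lay in the control range. At D28 the values were 5.82, 6.09 and 6.57 in control rats and 4.24, 5.47 and 6.33 in exposed rats. The log2 FC was -0.82 ± 0.29 at D0 (adjusted p = 0.164) and -0.74 ± 0.27 at D28 (adjusted p = 0.245). Its mean over both days, -0.78 ± 0.20 (adjusted p = 0.018), was called. That call was lost with normexp background correction, where the log2 FC was -0.31, and with the median signal or the deposited table, where it was -0.44. It was kept under 14 of 18 other settings. Serpind1 was lower within 4 of 4 slides at D0 and 3 of 3 at D28.

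The other genes grouped as anticoagulants were not called in any comparison. Thbd, thrombomodulin, gave -0.19 ± 0.10 at D0 and -0.27 ± 0.10 at D28, with a mean of -0.23 ± 0.07 (adjusted p = 0.058). Proc, protein C, gave -0.60 and -0.27. At D0 its probe A_42_P574099, above background on 4 arrays, gave -0.71, and A_44_P1047992 gave -0.49. Procr, the endothelial receptor of protein C, gave -0.43 and -0.09, and Serpina1, alpha-1-antitrypsin, gave -0.46 and -0.25. Pros1, the cofactor protein S, gave 0.07 and 0.13. Serpina5 and Serpinc1 were at or near background. Of 12 endothelial markers, 11 were below 0 on each day, with a median of -0.22 at D0 and -0.20 at D28, and all 12 were above background on every array. Their summed signal was 76516 to 89395 in control and 62365 to 79537 in exposed rats at D0, and 80096 to 102837 against 65682 to 84694 at D28. Their part in the values of Thbd and Procr was not tested.

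Fibrin genes were not called. Fgg gave 12.84, 12.52, 12.32, 12.74 and 12.34 in the exposed rats of D0, against a control range of 11.82 to 12.20. The groups did not overlap, while the log2 FC was 0.47 ± 0.17 (adjusted p = 0.194). At D28 it was 0.12 ± 0.16 with groups that overlapped. F13a1, the A subunit of the fibrin-stabilising factor, gave -0.35 and -0.38. Fga gave 0.21 and 0.34 and Fgb -0.73 and -0.39, at signals mostly below the background limit. Serpine2, Fgg and Plaur were thus the 3 of 35 members without overlap at D0, beside 4.3% of all genes, and Kng1 the only 1 of 35 at D28, beside 1.22%.

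The intrinsic and common pathway members other than Kng1 were not called for exposure. F11 gave -0.75 ± 0.25 at D0 and -0.33 ± 0.24 at D28, with a mean of -0.54 ± 0.18 (adjusted p = 0.076). F8, F12, F2, F5 and F10 lay between -0.22 and 0.25 on both days. The thrombin-type receptors F2r, F2rl1 and F2rl2 gave -0.38 to 0.11 at D0 and -0.50 to 0.04 at D28. At D28 the F2r probes A_44_P320655 and A_64_P000718 gave 0.32 and -0.24.

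Control rats of D28 and D0 differed in 1 member, Klkb1, plasma kallikrein, beside 0.608% of all genes. Its lowest and highest signals were 9.30 and 9.93 at D0 and 9.75 and 10.48 at D28, so the groups overlapped. The log2 difference was 0.59 ± 0.14 (adjusted p = 0.046), and the call remained in 5 of 23 fits that each left out 1 array. Exposure gave Klkb1 0.05 at D0 and -0.12 at D28.

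Among 35 further genes of the pathway, 32 were tested. Of these 32, 2 were called higher at D0 and 0 lower, beside 1.09% and 0.695% of all genes. These were A2m, alpha-2-macroglobulin, a broad protease inhibitor, with a log2 FC of 1.56 ± 0.34 (adjusted p = 0.012), and Kng2 with 0.98 ± 0.19 (adjusted p = 0.0062). At D28, where 0.756% of all genes were called, Kng2 gave 1.00 ± 0.19 (adjusted p = 0.0083) and was called. A2m gave 0.48 ± 0.32 (adjusted p = 0.666) and was not. The exposed D0 values of A2m spread from 5.92 to 8.85, against 5.38 to 5.87 in control rats.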

How the data were processed

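Per the file headers, the authors scanned 23 one-colour Agilent arrays and deposited one Feature Extraction file each (version 11.0.1.1 per the submitters' processing notes; 22 arrays carry it in the header). The deposited intensity per spot (gProcessedSignal) is background-corrected by that software; spot flags are deposited with it. A deposited table of all arrays, of linear intensity and with the same sorted values in all 23 columns, served only as an alternative.

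Probes were kept when their mean signal exceeded the 95th percentile of 308 negative control spots on at least 5 arrays (40418 of 45598). Spots flagged as outliers were left out, the intensity was put on the log2 scale and quantile normalized, and spots of a probe were averaged. Probes of a symbol were averaged, which left 23028 genes after 29 with a missing value were dropped. limma 3.58.1 (R 4.3.3) fitted 4 group means, with 19 residual degrees of freedom and Benjamini-Hochberg adjustment. Groups come from the array titles. The script was tested on simulated data. Precision is limited by the number of arrays. The methods give 6 animals per group; a sixth exposed D0 array was not analysed here.

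Every member was accounted for; values were given for those called in any comparison or without overlap on a day, and for at least 1 per role. The members and lists were chosen with earlier results of these data known. Probe sequences and rn4 positions come from the deposited files, promoters from RefSeq (GRCr8). Alternatives were other scalings, background corrections, filters, probe summaries, slide blocks, array weights, call rules and each array left out in turn. Results of 1 further pathway gene are not reported here.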

Additional observations from a re-analysis of the deposited data

Results flagged for a closer look

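In 9 of 140 combinations of member and group, 1 array stood apart from the rest of its group by Dixon's ratio, which is 6.43%, and chance alone gives about 1 in 20. TiO2 D0 replicate 4 accounts for 3 of them: it was lowest for Kng1 (9.80, next 10.73) and F2 (5.12, next 6.08) and highest for Plaur (7.65, next 7.42). Control D0 replicate 6 was highest for F5 (7.34). TiO2 D28 replicate 4 was lowest for Procr (6.78) and Control D28 replicate 6 lowest for Thbd (11.26). TiO2 D28 replicate 6 was highest for Serpinf2 (5.08). The values of Fga in Control D0 replicate 5 (2.16) and of Serpinb2 in TiO2 D28 replicate 3 (4.65) came from groups in which no array was above background. No member passed the test of the difference between the D0 and D28 effects after adjustment.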

How the results depend on the processing

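Over 35 members, 5 comparisons and all alternatives, 0 of the values that were called or lay over 2 standard errors from 0 turned direction. By setting, the number of members called at D28 was 1 rather than 2 with 75th percentile scaling, normexp correction, the median signal without correction, the deposited table, the arrays of a day alone and array quality weights, where Serpine2 was lost, and with the brightest probe, where Kng1 was lost. The filtered air comparison called 0 rather than 1 member with normexp, the median signal and the deposited table, and 2 at the unadjusted p. At D0 the unadjusted p called 6 members rather than 2, and the adjusted p alone called 5 rather than 3 for the averaged effect. Deviations of same-numbered exposed and control arrays correlated from -0.225 to 0.455, with 3 of 11 pairs above 0.1. Across groups, the median correlation was 0.178 on the same slide and -0.048 on different slides. With so few pairs and shared slides, the check cannot decide whether replicate numbers pair the arrays. The main fit treated them as unpaired. With the replicate number as a block, 4 members were called at D0, 1 at D28 and 0 between the filtered air groups, and the numbers of the other comparisons stayed within 1.5 times. The 3 members of the averaged effect were then Kng1, Serpine2 and F11, since Serpind1 was lost (log2 FC -0.76, adjusted p = 0.0502). Cpb2 was called at D0 under this block, the filter on spots well above background, array quality weights, slide as a random block, the unadjusted p and without Control D28 replicate 6. For the other pathway genes, main count 2 on each day, the arrays of a day alone gave 1 at D0 and 0 at D28, array quality weights 4 and 1, the adjusted p alone 4 at D0, and 75th percentile scaling and slide as a block 1 at D28. With each array left out, counts ran from 2 to 4 members at D0, 1 to 2 at D28, 3 to 5 for the averaged effect, 0 to 0 for the difference between days and 0 to 1 between filtered air groups, and from 2 to 4 and 1 to 2 other pathway genes. Control D28 replicate 6 left out gave the 4 members at D0 and the 5 of the averaged effect, adding Cpb2 and F11. The causes were not tested. Signals near background limit F10, Fgb, Fga, Tfpi2, Serpinc1, Serpina5 and Serpinb2.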
